A study of Mus musculus with 9 samples.

Results

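The 10 genes described here encode receptors, or receptor subunits, of hematopoietic growth factors, together with the progenitor surface protein CD34. They are Flt3, Kit, Cd34, Csf1r, Csf2ra, Csf2rb, Csf2rb2, Csf3r, Il3ra and Il7r, and they were chosen by gene symbol from the 51912 genes of the count table. All 10 passed the filter on low counts in the BM and the tissue comparison. Bulk RNA-seq was performed on pre-cDCs, the dividing precursors that leave the BM and give rise to conventional dendritic cells (cDCs) in tissues. BM gave 6 of the 9 samples, 3 of each genotype, and spleen gave 1 WT sample and 2 that lacked DNGR-1 (KO). All cells came from untreated mixed BM chimeras, in which lethally irradiated CD45.1/2 recipients on the BL/6 background received equal parts of WT CD45.1 and DNGR-1 KO CD45.2 BM. The KO cells carry Clec9aCre/Cre, a Cre allele in both copies of Clec9a, the gene that encodes DNGR-1. KO and WT therefore also differ in their CD45 allele and its flanking sequence, and genotype and congenic background cannot be told apart. For the WT samples a label field names CD45.1 and another CD45.2, and CD45.1 is used here because the study's methods give it for the WT donors. The methods state a general age range for all mice of the study and none for these recipients in particular. Each sample pooled cells of more than 1 chimera, and the study names fewer mice than 9 separate pools would need, so samples of different genotype or tissue shared mice. As the labels do not tie a sample to a mouse, p-values measure the spread between these samples.

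Growth factor receptors carry survival, division and lineage signals from soluble or membrane-bound ligands into blood cell progenitors. FLT3, KIT and the M-CSF receptor (Csf1r) are receptor tyrosine kinases. The receptors for GM-CSF, IL-3, G-CSF and IL-7 have no kinase of their own and signal through JAK kinases and STAT factors. FLT3 ligand is the main growth factor of the cDC lineage, and CD34 and KIT mark earlier progenitors.

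Sequencing depth ranged from 17103806 to 23722298 counts per sample. Levels are given as CPM, counts scaled to library size with TMM normalization, and a floor of 3 counts equals 0.127 to 0.180 CPM, which covers counting error only. Clec9a was counted 905 to 1766 times in WT BM, 1 time in each KO BM sample, 2459 times in WT spleen and 0 times in both KO spleen samples. All 12 cDC lineage markers, among them Itgax (CD11c) and Zbtb46, were above 3 counts in every sample. T cell transcripts were present in spleen as well, where each of 9 markers exceeded 3 counts in all 3 samples, although the lineage gate shown for pre-cDCs leaves out cells positive for CD3. The same gate leaves out cells positive for NK1.1, for the neutrophil marker Ly6G and for the erythroid marker Ter119. Spleen libraries lacked more genes than BM libraries. Of 8389 genes with at least 100 counts in both KO spleen samples, 509 (6.07%) had at most 3 counts in WT spleen. The corresponding values were 1.92% and 1.82% in the KO spleen samples and at most 1 gene in any BM sample. Genes had to reach 100 counts in all other samples of the tissue. This asks more in BM, which has more samples, so the 2 tissues were not measured alike. KO spleen samples are called 1 and 2 after their labels.

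Csf1r, Flt3 and Csf2ra were the most abundant receptor transcripts per gene length in both tissues. In BM the mean level per kilobase of exon was 78.5 CPM for Csf1r (range 27.7 to 123, n = 6), 69.4 for Flt3 (45.9 to 88.0) and 44.3 for Csf2ra (37.3 to 60.1). The ranges of these neighbours overlapped, and that of Csf2ra lay above Cd34, at 23.0 CPM per kilobase of exon (16.0 to 35.0). Csf2rb (19.6), Kit (11.0), Csf2rb2 (10.9) and Il3ra (9.40) followed Cd34 in BM, each overlapping the next. Csf3r (3.14 CPM per kilobase, 1.94 to 6.15) and then Il7r (0.453, 0.189 to 1.21) closed the BM order, each separated from the gene above it. In spleen the level order was led by Flt3 (80.4 CPM per kilobase, 57.2 to 96.3, n = 3), Csf1r (71.1, 40.8 to 117), Csf2ra (45.3, 33.8 to 52.6) and Il7r (41.5, 19.2 to 73.3), with overlapping ranges. The spleen levels of Csf2rb (12.4), Kit (8.56) and Csf2rb2 (5.96) were below Il7r, and those of Cd34 (2.91), Il3ra (2.11) and Csf3r (0.247) were the lowest. Il7r moved from the last place in BM to the fourth in spleen, and Cd34 from the fourth to the eighth. The order of neighbours depended on the length used. Per kilobase of the longest transcript, Flt3 (108 CPM) led Csf1r (96.4) in BM, Cd34 (54.8, range 38.1 to 83.3) lay beside Csf2ra (55.8, range 47.0 to 75.8), and Cd34 was seventh in spleen, with 14 of 20 places as before.

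**Figure D1:**
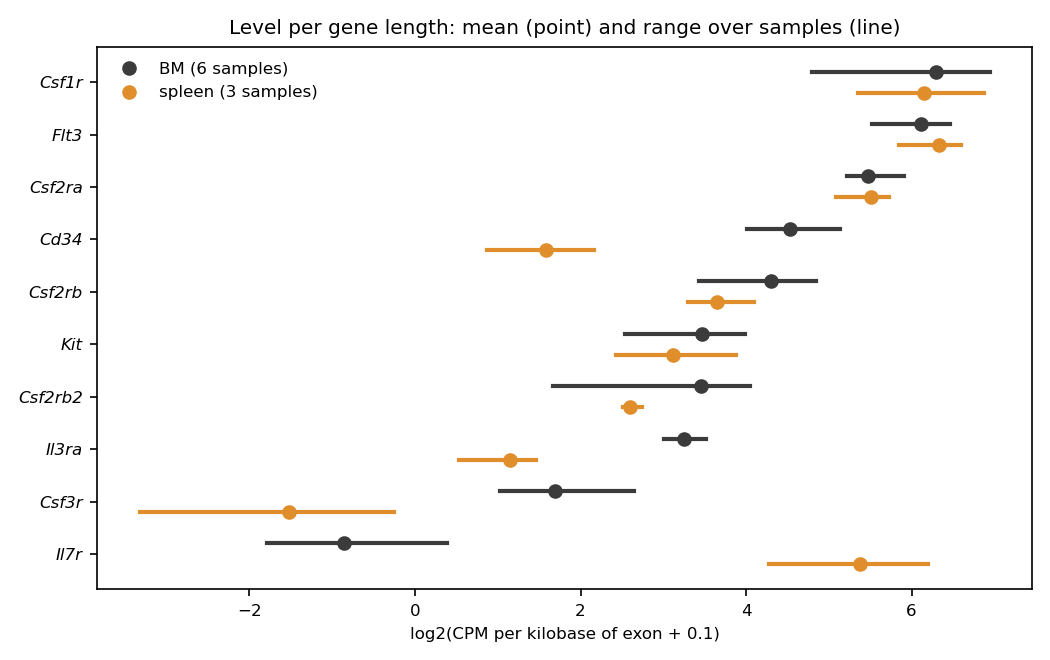
Level of each gene per kilobase of exon, as log2(CPM per kilobase + 0.1), with points at the mean and lines from the lowest to the highest of 6 BM (dark) and 3 spleen (orange) samples. The BM and spleen lines of Cd34, Il3ra, Csf3r and Il7r do not overlap, and those of the other 6 genes do. Of all genes tested, 17% had every spleen sample below every BM sample and 8.64% every spleen sample above.

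Spleen and BM pre-cDCs were compared in a fit of all 9 samples that included genotype, to ask which receptor genes differ between the precursor in its tissue of origin and in the periphery. Il7r was higher in spleen, Cd34 and Il3ra were lower, and the other 7 genes did not pass the threshold (edgeR's quasi-likelihood test, adjusted p under 0.05). Over all 14277 genes tested, 7.24% were called higher and 11.7% lower in spleen, against 1 and 2 of the 10 receptor genes. The median log2 fold change of the 10 genes was -0.54 and that of all genes tested -0.19. In these bulk samples, fewer cells of a type and less RNA per cell cannot be told apart.

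**Figure D2:**
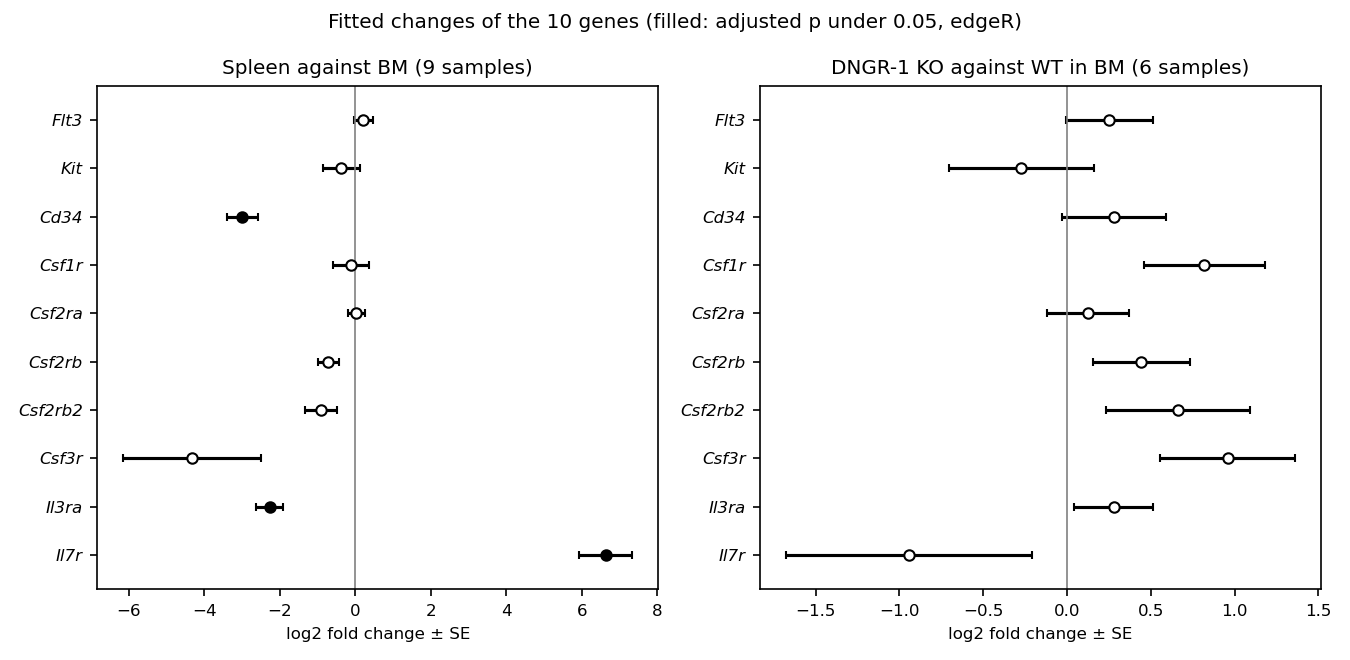
Fitted log2 fold change ± SE of each gene in spleen against BM (left, 9 samples) and in DNGR-1 KO against WT BM pre-cDCs (right, 6 samples). Filled points pass an adjusted p of 0.05: Il7r, Cd34 and Il3ra on the left, and 0 of the 10 genes on the right.

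Flt3 (ENSMUSG00000042817) is on the minus strand of chromosome 5 of GRCm38, from 147330741 to 147400489, and encodes CD135, the receptor for FLT3 ligand. The gate shown for pre-cDCs takes CD135+ cells in both tissues, so the presence of its transcript follows from the sort. Flt3 measured 284, 379 and 508 CPM in WT BM, 381, 544 and 475 CPM in KO BM, 595 CPM in WT spleen, and 541 and 353 CPM in KO spleen. The tissues overlapped, with only the WT spleen sample above all BM samples. The log2 fold change in spleen was 0.21 (SE 0.25, adjusted p = 0.620 by edgeR).

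Kit (ENSMUSG00000005672, chromosome 5, plus strand, 75574916 to 75656722) encodes the stem cell factor receptor. Its level split the samples within groups rather than between them: 50.7, 138 and 132 CPM in WT BM, 141, 56.2 and 68.9 CPM in KO BM, 52.1 CPM in WT spleen, and 130 and 47.2 CPM in KO spleen. The log2 fold change of Kit in spleen was -0.37 (SE 0.50, edgeR adjusted p = 0.669), and it lay between -0.956 and -3.43e-04 when each sample was left out. Mast cells carry KIT too. Summed basophil and mast cell markers were 10.8 to 52.2 CPM in BM and 0, 1.56 and 0.0847 CPM in the spleen samples, with 6 of 7 markers at 0 in all 3, among them Cpa3, Mcpt8 and Gata2. The seventh, Hdc, the histidine decarboxylase gene, was counted 0, 28 and 2 times in WT spleen and KO spleen 1 and 2, so it was highest in the spleen sample with the highest Kit. The part of these cells in the Kit levels was not tested.

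Cd34 (ENSMUSG00000016494, chromosome 1, plus strand, 194938819 to 194961279) encodes a sialomucin of stem and progenitor cells. The gene lies distal to the chromosome 1 interval from which the study made its score of the congenic background. Cd34 measured 132, 127 and 196 CPM in WT BM and 255, 117 and 181 CPM in KO BM, against 31.9 CPM in WT spleen and 19.1 and 12.6 CPM in KO spleen. Every spleen sample was below every BM sample, as for 17% of all genes tested. Cd34 was 7.96-fold lower in spleen (log2 fold change -2.99, SE 0.40, adjusted p = 0.00147 by edgeR). Without each sample in turn its log2 fold change was -3.54 to -2.71. Summed stem and progenitor markers were 43.9 to 136 CPM in BM and 5.65, 26.4 and 19.3 CPM in WT spleen and KO spleen 1 and 2, with 5 of 9 at most 3 counts in every spleen sample and Hoxa9, Gata2 and Hlf at 0. Within spleen Cd34 was highest in the WT sample, where the markers summed lowest. The sums in KO spleen came mainly from Myb (42, 206 and 451 counts in WT spleen and KO spleen 1 and 2) and Procr (13, 230 and 0 counts), whereas Meis1 (38, 0 and 0 counts) was highest in the WT sample, as Cd34 was. The part of such cells in the Cd34 result was not tested. The Cd34 to Kit ratio per kilobase was 1.13 to 3.21 in BM and 0.180 to 0.748 in spleen, so Cd34 was lower relative to Kit in every spleen library than in any BM library.

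Sequences upstream of the transcription start site are shown for Flt3 and Cd34, a pair in which the first did not pass the tissue test and the second fell. Each window is the 250 bases before the RefSeq start in GRCm38.p6, 5′ to 3′ on the gene's strand, chr5:147400490-147400739 (minus) for Flt3 and chr1:194938571-194938820 (plus) for Cd34. Capitals mark matches, on either strand, to motif letters searched for hematopoietic factors.
Flt3: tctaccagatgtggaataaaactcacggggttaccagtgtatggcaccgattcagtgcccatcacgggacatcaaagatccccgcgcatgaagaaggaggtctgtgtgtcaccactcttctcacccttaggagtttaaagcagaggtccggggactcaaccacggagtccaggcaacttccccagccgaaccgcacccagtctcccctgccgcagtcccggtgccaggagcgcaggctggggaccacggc
Cd34: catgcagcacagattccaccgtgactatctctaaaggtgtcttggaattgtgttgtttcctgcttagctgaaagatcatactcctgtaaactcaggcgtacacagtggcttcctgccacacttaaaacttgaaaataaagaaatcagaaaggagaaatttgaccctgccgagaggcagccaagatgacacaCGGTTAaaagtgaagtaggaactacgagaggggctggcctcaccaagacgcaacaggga
The PU box, bound by PU.1 and related factors, was searched as GAGGAA and occurs in 23.3% of all 32851 windows of this length. RUNX factors were searched as TGTGGT, found in 14% of the windows. For C/EBP factors the letters were TTGCNNAA, and 9.56% of the windows hold them. GATA factors were given AGATAA, which 9.99% hold. The STAT letters were TTCNNNGAA, present in 7.02%. MYB was searched as CNGTTA, present in 19.8%. Overlapping matches were allowed. The Flt3 window held 0 matches, and the Cd34 window held 1, to the MYB letters, starting 59 bases before the start site. A window was found for 8 of the 10 genes. The PU box letters occurred in the windows of Kit, Csf2ra, Csf2rb2 and Csf3r, the STAT letters in those of Csf2rb2 and Il7r, the C/EBP letters in those of Il3ra and Il7r, the MYB letters also in that of Il7r, and the GATA and RUNX letters in 0 of the 8. The printed Cd34 window overlaps an annotated exon by 2 of its 250 bases. The windows of Il3ra and Il7r, the other called genes, overlap annotated exons by 220 and 86 bases and are not printed. Letter matches describe these windows and are not binding sites.

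Csf1r (ENSMUSG00000024621, chromosome 18, plus strand, 61100598 to 61132149) encodes CD115, the receptor for M-CSF and IL-34 on monocytes and macrophages. Csf1r measured 160, 332 and 489 CPM in WT BM, 543, 708 and 486 CPM in KO BM, 678 CPM in WT spleen, and 236 and 319 CPM in KO spleen. In BM 2 of 3 KO samples were above all WT samples, and in spleen both KO samples were below the WT sample. Over both genotypes the tissue difference was -0.12 on the log2 scale (SE 0.47, edgeR adjusted p = 0.899), and it lay between -1.06 and 0.27 when each sample was left out. Monocyte and macrophage markers summed to 1448 to 2146 CPM in BM and to 1577, 1590 and 2365 CPM in WT spleen and KO spleen 1 and 2. Single markers differed within spleen. Cx3cr1 (375, 269 and 214 CPM), Cd68 (427, 334 and 186 CPM) and Adgre1 (124, 66.9 and 69.5 CPM) were lower in both KO samples, as Csf1r was, whereas Ly6c2 (617, 815 and 1657 CPM), C1qa and C1qb were higher in both. The part of monocytes and macrophages in the Csf1r levels was not tested. The counts of Csf1r and of its neighbour Hmgxb3 sum to whole numbers in 9 of 9 samples while Csf1r alone does not in 8, so reads were divided between them, but 93.2% to 100% of the sum was assigned to Csf1r.

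Among the receptors of the GM-CSF and IL-3 family, the chain that binds IL-3 fell in spleen and the chain that binds GM-CSF did not pass the test. Csf2ra (ENSMUSG00000059326, chromosome 19, minus strand, 61223957 to 61228429), which binds GM-CSF, measured 107 to 134 CPM in WT BM, 112, 173 and 114 CPM in KO BM, 142 CPM in WT spleen, and 151 and 97.0 CPM in KO spleen. Its log2 fold change in spleen was 0.03 (SE 0.22, adjusted p = 0.950 by edgeR), and the tissues overlapped. Il3ra (ENSMUSG00000068758, chromosome 14, plus strand, 14346275 to 14356011), which binds IL-3, measured 26.6, 25.3 and 23.6 CPM in WT BM and 26.3, 33.6 and 31.9 CPM in KO BM, against 3.98 CPM in WT spleen and 7.88 and 6.90 CPM in KO spleen. All 3 spleen samples were below all 6 BM samples. Il3ra was 4.82-fold lower in spleen (log2 fold change -2.27, SE 0.35, adjusted p = 0.00279 by edgeR), and its log2 fold change was -2.37 to -2.05 without each sample in turn. The basophil and mast cell markers given for Kit, cells that also carry the IL-3 receptor, were likewise lower in spleen, and their part in the Il3ra result was not tested. Within BM, Il3ra ranged from 23.6 to 33.6 CPM and the sum of those markers from 10.8 to 52.2 CPM, and their relation was not tested.

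Csf2rb (ENSMUSG00000071713, plus strand, 78325752 to 78353847) and Csf2rb2 (ENSMUSG00000071714, minus strand, 78282507 to 78305721) are neighbours on chromosome 15. The first encodes the common beta chain of the GM-CSF, IL-3 and IL-5 receptors, and the second a beta chain specific to IL-3 that is found in the mouse. Both fitted values were below 0 in spleen and neither passed the threshold. Csf2rb measured 77.7, 137 and 146 CPM in WT BM, 149, 208 and 135 CPM in KO BM, 77.4 CPM in WT spleen, and 123 and 70.9 CPM in KO spleen (log2 fold change -0.71, SE 0.28, adjusted p = 0.109 by edgeR). For Csf2rb2 the levels were 14.6, 50.2 and 54.8 CPM in WT BM, 58.2, 77.7 and 54.0 CPM in KO BM, and 26.6, 26.9 and 31.3 CPM in WT spleen and KO spleen 1 and 2 (log2 fold change -0.91, SE 0.41, edgeR adjusted p = 0.154). WT BM 1 was the exception among BM samples, as it lay below every spleen sample for Csf2rb2. Without that sample Csf2rb2 passed the threshold, with a log2 fold change of -1.07 and an adjusted p of 0.0172 by edgeR.

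The 2 beta chain genes share sequence, which bears on how reads were assigned to them. In the longest GENCODE M21 transcripts 26% of the 50-base words of the Csf2rb coding sequence also occur in that of Csf2rb2. The longest identical coding run has 242 bases and takes positions 2083 to 2324 of both coding sequences. It is shown here with 10 coding bases on either side, read 5′ to 3′ on each gene's strand, and capitals mark the bases that differ between the genes.
Csf2rb: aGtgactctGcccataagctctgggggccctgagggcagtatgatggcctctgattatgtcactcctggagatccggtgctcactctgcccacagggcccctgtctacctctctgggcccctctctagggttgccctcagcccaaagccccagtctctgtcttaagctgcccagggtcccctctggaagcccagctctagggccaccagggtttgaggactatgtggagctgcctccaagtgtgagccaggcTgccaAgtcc
Csf2rb2: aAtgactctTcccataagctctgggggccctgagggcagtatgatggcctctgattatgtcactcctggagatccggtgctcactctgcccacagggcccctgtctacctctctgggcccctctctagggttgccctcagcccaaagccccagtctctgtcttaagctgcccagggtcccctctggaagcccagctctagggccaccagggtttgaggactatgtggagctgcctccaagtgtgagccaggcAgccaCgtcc
Csf2rb was not a whole number in 8 of 9 samples, while its sum with Csf2rb2 was whole, within 0.015, in 9 of 9. Csf2rb took 69.4% to 84.2% of the sum. Taken as 1 gene, the beta chains measured 92.3 to 201 CPM in WT BM, 189 to 286 CPM in KO BM, 104 CPM in WT spleen, and 150 and 102 CPM in KO spleen, with a log2 fold change of -0.76 in spleen (SE 0.29, adjusted p = 0.0935 by edgeR).

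**Figure D3:**
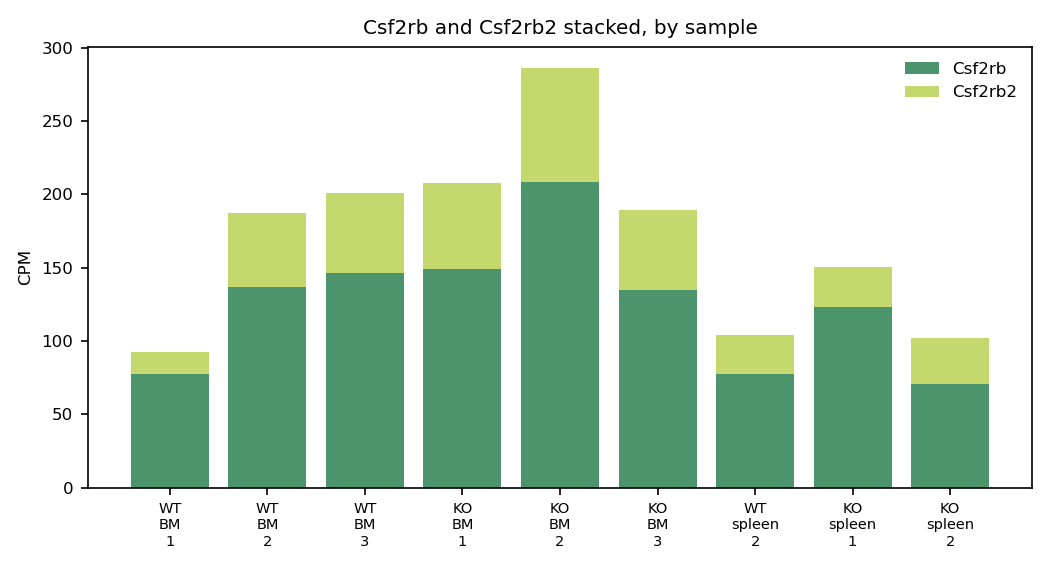
CPM of Csf2rb (dark green) and Csf2rb2 (light green) stacked for each of the 9 samples, without error bars as each bar is 1 sample. The sum is lowest in WT BM 1 and highest in KO BM 2, and Csf2rb makes up 69.4% to 84.2% of it.

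Csf3r (ENSMUSG00000028859, chromosome 4, plus strand, 126024550 to 126044440) encodes the G-CSF receptor of neutrophils and their precursors. Its counts were 121, 135 and 173 in WT BM and 495, 153 and 305 in KO BM, against 45 in WT spleen and 0 in both KO spleen samples. In CPM these are 7.25, 7.01 and 8.81 in WT BM, 22.2, 7.48 and 15.3 in KO BM, and 2.67 in WT spleen. Every spleen sample was below every BM sample. Mean BM was 4.24-fold above the WT spleen sample and at least 67.7-fold above the KO spleen samples, taking 3 counts per library as the floor. The edgeR test did not call this difference (fitted log2 fold change -4.32, SE 1.83, adjusted p = 0.129), whereas DESeq2 (adjusted p = 0.00571) and limma-voom (adjusted p = 0.0122) did. Without the WT spleen sample edgeR called it too (adjusted p = 0.00134).

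Neutrophil markers moved in the same direction as Csf3r between tissues. They summed to 859 to 2774 CPM in BM, where 7 of 9 were above 3 counts in every sample, and to 0.0594, 0 and 1.06 CPM in WT spleen and KO spleen 1 and 2, where 8 of 9 had at most 3 counts in every sample and Ly6g, S100a8, Elane and Retnlg were at 0. Mpo made up most of the sum in every BM sample, at 694 to 2107 CPM. The lineage gate covers Ly6G, and the part of neutrophil lineage transcripts in the Csf3r result was not tested. In WT spleen, Csf3r was at 45 counts with 1 count of Mpo and 0 of the other 8 markers. Within BM, KO BM 3 had the second-highest Csf3r (15.3 CPM) and the lowest marker sum (859 CPM), but Mpo made up 694 CPM of that sum, and single markers had other orders. Retnlg was counted 67 times in KO BM 1, the sample highest in Csf3r, 15 times in KO BM 3 and 0 times in the other BM samples. In CPM, Mpo, Ngp and Ltf were also highest in KO BM 1. S100a8 (179 CPM), S100a9, Camp, Elane (162 CPM) and Ly6g were instead highest in WT BM 1, where Csf3r was at 7.25 CPM.

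Il7r (ENSMUSG00000003882, chromosome 15, minus strand, 9505788 to 9530176) encodes the IL-7 receptor alpha chain, CD127, which lymphoid progenitors, T cells and innate lymphoid cells carry. It was the lowest of the 10 genes in BM and the fourth-highest in spleen per gene length. Counts were 18, 31 and 111 in WT BM, 38, 18 and 35 in KO BM, 1508 in WT spleen, and 2678 and 8068 in KO spleen. The corresponding levels were 1.08, 1.61 and 5.65 CPM in WT BM, 1.71, 0.880 and 1.75 CPM in KO BM, 89.6 CPM in WT spleen, and 150 and 342 CPM in KO spleen. All 3 spleen samples were above all 6 BM samples, as for 8.64% of all genes tested. The fitted difference was 99.3-fold (log2 fold change 6.63, SE 0.71, adjusted p = 4.53e-04 by edgeR), with a log2 value of 5.96 to 7.40 when each sample was left out.

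T cell transcripts were high in the same libraries as Il7r. The 9 T cell markers summed to 3.41 to 9.74 CPM in BM and to 801, 1048 and 3191 CPM in WT spleen and KO spleen 1 and 2, the same order as Il7r. Il7r corresponded to 11.2%, 14.3% and 10.7% of that sum in the 3 spleen samples and to 17.5% to 76.6% in BM, where both were low. Trac and Cd3e were counted 3579 and 955 times in WT spleen, 3926 and 995 times in KO spleen 1, and 16453 and 8622 times in KO spleen 2. Markers of NK cells and innate lymphoid cells summed to 35.1 to 91.8 CPM in BM and to 574, 609 and 1050 CPM in spleen. The lineage gate covers CD3 and NK1.1, and the part of these cells in the Il7r result was not tested.

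**Figure D4:**
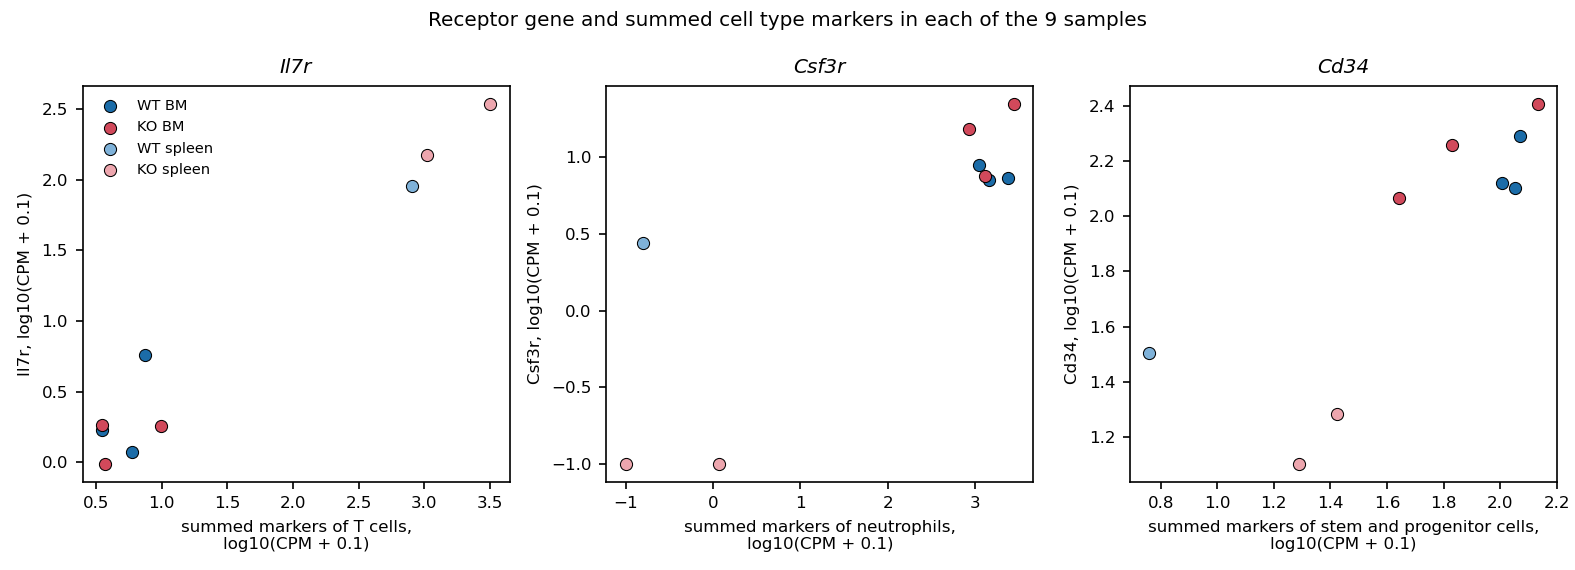
Il7r, Csf3r and Cd34 against the summed markers of T cells, neutrophils, and stem and progenitor cells, both axes as log10(CPM + 0.1), 1 point per sample coloured by group. The spleen points of Il7r lie at 801 to 3191 CPM of T cell markers, and the BM points at 3.41 to 9.74 CPM.

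DNGR-1 KO and WT pre-cDCs of the BM were compared over 6 samples, the comparison that addresses whether loss of DNGR-1 goes with a change in growth factor receptors. The edgeR test called 0 of the 10 genes, beside 0.0307% of 13016 genes tested (4 genes, with 498 at an unadjusted p under 0.05). Of the 10, Csf1r and Csf3r had an unadjusted p under 0.05, and DESeq2 and limma-voom also called 0. The median log2 fold change was 0.28 for the 10 genes and -0.0045 for all genes tested.

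Csf1r had a log2 fold change of 0.82 in KO BM (SE 0.36, edgeR adjusted p = 0.861), with a mean of 579 ± 116 CPM in KO and 327 ± 165 CPM in WT (SD, n = 3 each). For Csf3r it was 0.96 (SE 0.40, edgeR adjusted p = 0.861), with 15.0 ± 7.37 CPM in KO and 7.69 ± 0.977 CPM in WT (SD, n = 3 each). In both genes 2 of 3 KO samples were above all WT samples and the other was within the WT range. The same held for Csf2rb, Csf2rb2 and Il3ra, with log2 fold changes of 0.44 (SE 0.29), 0.66 (SE 0.43) and 0.28 (SE 0.24) and an edgeR adjusted p of 0.861 each. In 0 of the 10 genes were all KO samples above all WT samples, beside 4.83% of all genes tested. The remaining genes had log2 fold changes of 0.25 (Flt3, SE 0.26), 0.28 (Cd34, SE 0.31), 0.13 (Csf2ra, SE 0.24), -0.27 (Kit, SE 0.43) and -0.94 (Il7r, SE 0.74), with adjusted p values of 0.861 to 0.931 by edgeR.

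Single libraries set much of the spread in BM. WT BM 1 was the lowest of the 6 BM samples for 6 genes, Flt3, Kit, Csf1r, Csf2ra, Csf2rb and Csf2rb2. KO BM 2 was the highest for 6 genes, Flt3, Csf1r, Csf2ra, Csf2rb, Csf2rb2 and Il3ra, and KO BM 1 was the highest for Kit, Cd34 and Csf3r. Marker sums differed between these libraries as well. Among BM samples, WT BM 1 had the lowest sum of cDC lineage markers (3857 CPM) and the highest of erythroid markers (617 CPM), and KO BM 2 the highest sum of cDC lineage markers (7961 CPM) and the lowest of erythroid markers (85.5 CPM). The second-lowest cDC lineage sum was that of KO BM 1 (4102 CPM). There Csf1r (543 CPM), Csf2rb (149 CPM) and Csf2rb2 (58.2 CPM) were second highest in BM, and Csf2ra (112 CPM) was second lowest. The part of cDC lineage and erythroid cells in the receptor levels was not tested. KO BM 1 had the highest sums of neutrophil markers (2774 CPM), of stem and progenitor markers (136 CPM) and of basophil and mast cell markers (52.2 CPM). Eosinophil markers summed to 4.55 to 7.13 CPM in WT BM and to 10.8 to 44.5 CPM in KO BM. The highest of these sums was that of KO BM 1, where Prg2 and Epx were counted 666 and 137 times. In the other BM samples Prg2 was counted at most 6 times and Epx 0 times. Siglecf made up most of each sum there. It had 70, 105 and 140 counts in WT BM and 188, 233 and 209 counts in KO BM. The part of neutrophils, stem and progenitor cells, basophils, mast cells and eosinophils in the receptor levels was not tested. Without KO BM 1 the log2 fold change of Cd34 turned to -0.03, and without WT BM 3 that of Il7r turned to 0.10, neither of them called in any alternative of the BM comparison.

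**Figure D5:**
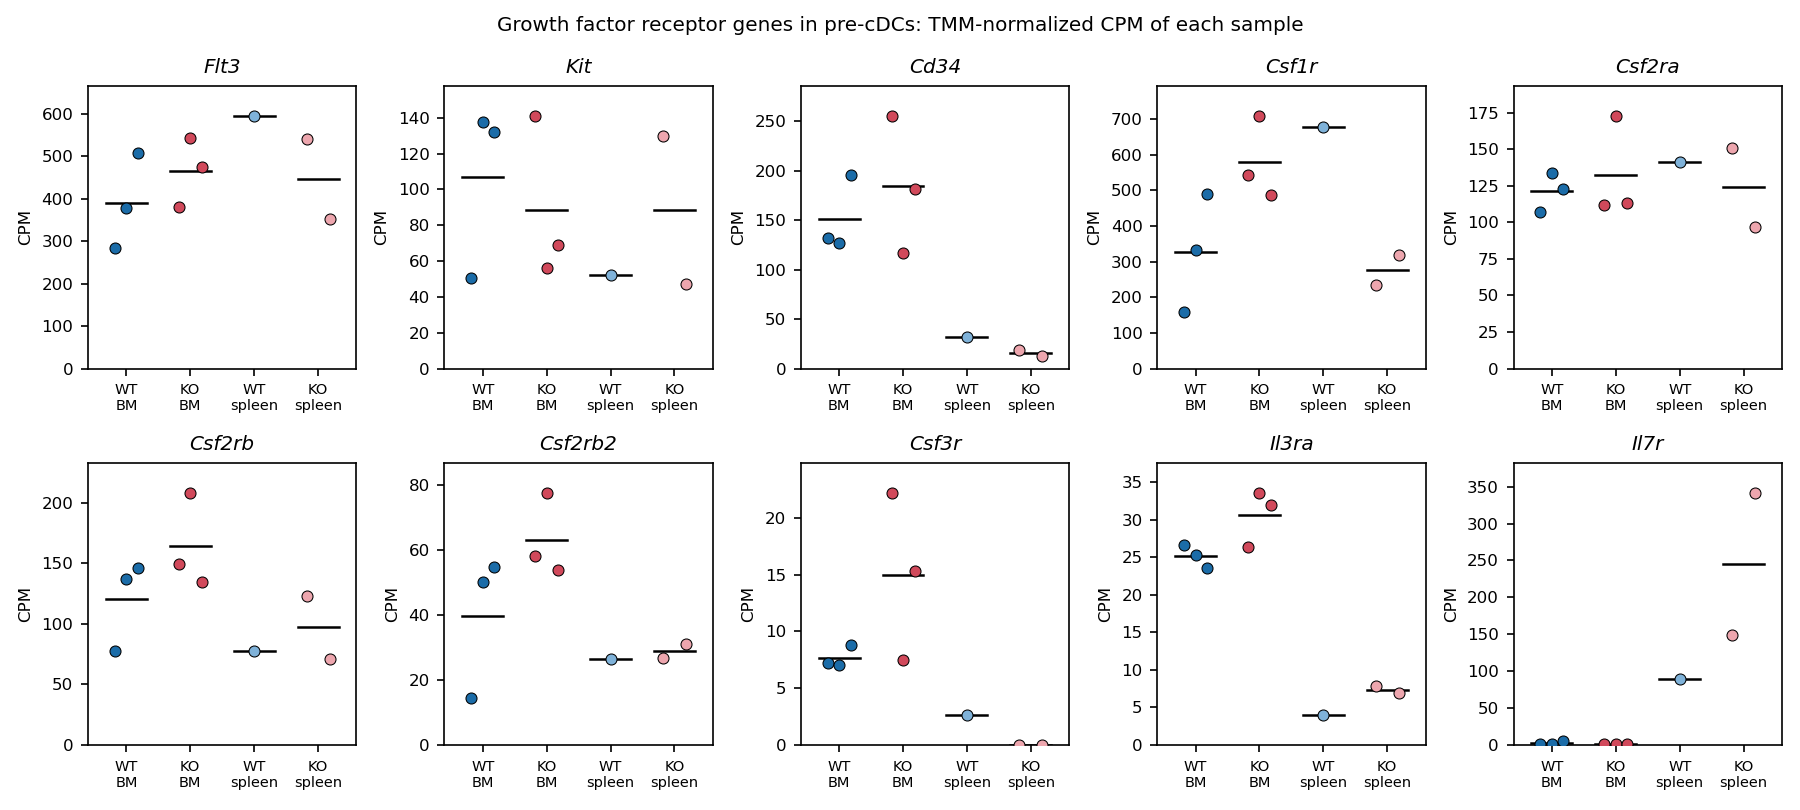
CPM of each gene in every sample, grouped as WT BM (n = 3), KO BM (n = 3), WT spleen (n = 1) and KO spleen (n = 2), with a line at each group's mean and axes that start at 0. Cd34, Csf3r and Il3ra lie lower and Il7r higher in all spleen samples, as do 17% and 8.64% of all genes tested. In BM the KO range overlaps the WT range in each panel.

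In spleen alone the genotypes were compared without a test, as there was 1 WT sample. Both KO samples were below the WT sample for Flt3, Cd34, Csf1r and Csf3r, and above it for Csf2rb2, Il3ra and Il7r. They fell on either side for Kit, Csf2ra and Csf2rb. The share of all genes with both KO samples on 1 side was not computed, so these sides describe single genes only. Csf2rb2 in KO spleen 1 was 1.01 times the WT level, and 0.956 and 0.995 times with total count and DESeq2 scaling. WT spleen was 2.45-fold above the mean of the KO samples for Csf1r and 2.01-fold for Cd34. The mean of the KO samples was 2.74-fold above WT spleen for Il7r and 1.86-fold for Il3ra. For Il7r the single KO samples were at 1.67 and 3.81 times the WT level. T cell marker sums had the same spleen order as Il7r, and their part was not tested. The level of Csf3r in WT spleen was at least 16.0-fold above both KO samples, in libraries where 1.82% to 6.07% of well-counted genes were missing.

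Whether the genotype difference differed between tissues was tested as an interaction over all 9 samples, in which the lone WT spleen sample was assumed to vary like the other groups. That group has no replicate, so the p-values rest on this assumption. Of the 10 genes only Csf3r had an edgeR adjusted p under 0.05 (0.00519), beside 7.01% of 15813 genes tested. For Csf3r the spleen side rests on 45 counts in the WT library and 0 in both KO libraries, its adjusted p ranged from 1.56e-05 with DESeq2 to 0.0747 with limma-voom, and limma-voom called 0 genes in all. For Csf1r the interaction was -2.12 on the log2 scale (SE 0.66, edgeR adjusted p = 0.104), and DESeq2 called it (adjusted p = 0.0241). The interaction terms of the other 8 genes had adjusted p values of 0.266 and above by edgeR, with fitted values from -1.30 for Cd34 to 2.40 for Il7r. Single libraries moved these values. That of Il7r was 1.34 without WT BM 3, and that of Kit fell from 1.02 to 0.12 without KO spleen 1.

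Genes that supply, transmit or restrain the same signals were examined as 6 lists in the tissue comparison, and in BM 0 genes of any list passed between genotypes. Of the growth factor ligands, 4 of 10 were tested and 0 passed, beside 7.24% higher and 11.7% lower of all genes tested. Flt3l, the ligand of FLT3, was counted 153 to 280 times in BM and 231, 496 and 1694 times in spleen (log2 fold change 1.57, SE 0.49, adjusted p = 0.0539 by edgeR), and passed when WT spleen or KO spleen 1 was left out. Its spleen order was that of the T cell marker sums, whose part was not tested. Csf2, Csf3, Il3 and Il5 had 0 counts in all samples.

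Other cytokine receptor subunits included 7 higher and 3 lower genes of 33 tested, beside 7.24% higher and 11.7% lower of all genes tested. Il2rb, the beta chain of the IL-2 and IL-15 receptors, was at 0.243 ± 0.500 CPM in BM and 442 ± 315 CPM in spleen (SD, n = 6 and n = 3, edgeR adjusted p = 1.06e-04). Il2rg, the common gamma chain that pairs with IL7R, was 5.76-fold higher (edgeR adjusted p = 1.32e-04), and Ifngr1, a chain of the interferon-gamma receptor, 2.20-fold higher (edgeR adjusted p = 6.97e-04). The lower genes included Epor, the erythropoietin receptor (40.2 against 0.596 CPM), and Ifnar2, a type I interferon receptor chain (243 against 148 CPM). Erythroid markers did not move together. The 6 of them, which include Epor, summed to 85.5 to 617 CPM in BM and to 5108, 30676 and 9701 CPM in WT spleen and KO spleen 1 and 2, mostly from the hemoglobin genes Hba-a1 and Hbb-bs, whereas Klf1, an erythroid transcription factor, had 233 to 5625 counts in BM and 0, 5 and 2 in spleen. T cell marker sums were higher in spleen like Il2rb and Il2rg. Within spleen Il2rb had their order (3390, 5846 and 18845 counts), and Il2rg did not (10811, 8724 and 16861 counts). The lineage gate covers Ter119 and CD3, and the part of erythroid and T cells in these results was not tested.

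Beside 7.24% higher and 11.7% lower of all genes tested, 3 of 11 JAK and STAT genes were higher in spleen and 0 lower. Among them were Stat4 (7.54-fold) and Jak1 (4.29-fold), with edgeR adjusted p values of 1.28e-04 and 0.00226. Among 32 RAS, PI3K and SRC family signalling genes, Fgr and Fyn were higher, and Gab1 and Shc1 lower, beside the same shares of all genes. Negative regulators of receptor signalling had 4 higher and 1 lower of 24, among them Socs3 (0.599 against 23.9 CPM), Socs1 (0.533 against 12.6 CPM) and Ptpn2 (81.4 against 180 CPM), and Sh2b3, an adaptor that restrains KIT signalling, was the lower one (51.0 against 27.5 CPM). Only 2 negative regulators, Socs1 and Socs3, were higher when WT spleen was left out. T cell markers moved with several of these genes. Counts in WT spleen and KO spleen 1 and 2 were 6167, 8009 and 24337 for Jak1, 563, 1186 and 3318 for Fyn, and 44, 156 and 627 for Socs1, the order of the T cell and NK cell marker sums. Stat4, at 2407, 2457 and 5142 counts, was also highest in KO spleen 2, whereas Fgr, at 4686, 2975 and 2646 counts, had the opposite order. Socs3, at 517, 236 and 656 counts, and Ptpn2, at 4225, 2000 and 4165 counts, did not have the T cell order. The part of T and NK cells in these results was not tested.

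Transcription factors of progenitors and DCs had 2 higher and 5 lower of 18 tested, beside 7.24% higher and 11.7% lower of all genes tested. Relb and Irf4, which act in cDC2 differentiation, were 5.42-fold and 6.68-fold higher. Relb, at 631, 852 and 1204 counts in WT spleen and KO spleen 1 and 2, had the order of the T cell marker sums, and Irf4, at 4788, 1712 and 5051 counts, did not. Hoxa9 and Gata2 had 0 counts in all spleen samples, and Sox4, at 2.91 CPM in BM, had 0, 0 and 2. The lists had been chosen with earlier results of these data known. When WT BM 1, KO BM 1 or any spleen sample was left out, Il2rb, Il2rg, Ifngr1, Stat4, Jak1, Socs1, Socs3, Relb, Irf4, Hoxa9, Gata2 and Sox4 were called each time, and Gab1 and Fgr were as well. Other calls depended on single libraries. Of these settings, Epor was called only without KO spleen 1. Ifnar2 and Sh2b3 were not called without WT spleen or without KO spleen 1, Fyn was not called without KO BM 1 or KO spleen 2, Shc1 was not called without KO BM 1, WT spleen or KO spleen 2, and Ptpn2 was not called without WT spleen.

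The genes whose centred log2 CPM was nearest to the receptor genes over the 9 samples were listed by their root mean square difference. Nearest to Cd34 was Cdca7 (0.35), and nearest to Il3ra was the tubulin gene Tubb5 (0.19). Csf3r was nearest to Meis1 (0.37), a transcription factor of stem and progenitor cells, and Il7r to Ltb (0.55), which encodes lymphotoxin beta. The third nearest to Il7r was Trbv17 (0.58), a T cell receptor beta segment. Flt3 was nearest to Chp1 (0.14), Kit to Rrp12 (0.30), Csf1r to Fam107b (0.18), Csf2ra to Tnip2 (0.13) and Csf2rb2 to Lbr (0.14).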

How the data were processed

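Total RNA of sorted pre-cDCs was depleted of ribosomal RNA and sequenced with DNBSEQ. Submitters' processing notes name Trimmomatic 0.36, STAR 2.5.2, RSEM 1.3.0, DESeq2 1.18.1, R 3.4.3 and GRCm38. The authors deposited expected counts per gene, without normalization, and 25.6% of the nonzero values are not whole. Expected counts were rounded. The deposited variance-stabilized values were not used.

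Symbols, coordinates and exon lengths came from GENCODE M21 (GRCm38), and the authors' annotation version is not given in the sources used here. Tests used edgeR 4.0.16 in R 4.3.3 (TMM, filterByExpr, quasi-likelihood, Benjamini-Hochberg over all genes tested, threshold 0.05), over the 6 BM samples for genotype and all 9 for tissue and interaction. SEs came from the F statistic. CPM used TMM over 9 samples. Log2 CPM for likeness used a prior count of 2. Alternatives were DESeq2 1.42.0, limma 3.58.1 (voom), other filters, scalings and covariates, the replicate number as a block, and leaving out samples; the beta chain sum, the spleen genotype settings and the lists without single libraries were added after seeing the data. Replicates differed by a chi-square per gene of 28.9 to 257, so each was counted as a sample of its own. Scripts were tested on simulated data.

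The receptor genes and all gene lists were chosen with earlier results of these data known. All 10 receptor genes are named, and of each other list at most 3 genes per direction, those lowest in adjusted p among the called. Others named were chosen after their values were seen, apart from markers beside a result and the genes nearest in pattern, of which 3 per gene were computed. A few genes that these rules would name are not reported here.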

Additional observations from a re-analysis of the deposited data

Results flagged for a closer look

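Among the 6 BM samples, Il7r in WT BM 3 stood apart at 5.65 CPM, against 0.880 to 1.75 CPM in the other 5. The gap was tested for all 10 genes, and chance flags about 1 in 20 groups. WT BM 3 had the second-highest BM sum of T cell markers, at 7.38 CPM, below the 9.74 CPM of KO BM 1.

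For Csf3r, the interaction of genotype and tissue had an edgeR adjusted p of 0.00519, and limma-voom did not call it (adjusted p = 0.0747). In BM the mean was 15.0 CPM in KO and 7.69 CPM in WT, and in spleen 0 CPM in both KO samples and 2.67 CPM in the WT sample. The spleen side of this result rests on 45 counts in 1 WT library, a group without a replicate whose spread was taken from the other groups.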

How the results depend on the processing

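Cd34, Il3ra and Il7r were called between tissues, with their direction kept, in all 17 alternatives, and 0 receptor genes were called between BM genotypes in all 14. Between tissues Csf3r was also called with DESeq2 (log2 fold change -4.41), limma-voom (-6.12) and KO samples only (-11.29). Without single samples its value ranged from -11.23 to -3.05. The fitted -11.29 and -11.23, the second without WT spleen, rest on spleen libraries that all had 0 counts, so they are not measured folds. Mean KO BM was at least 89.45-fold above the floor of 3 counts in the KO spleen samples. Directions turned only in uncalled genes. Csf2ra in tissue was -0.027 with the replicate block and -0.0958 in KO samples only, with -0.0948 to 0.21 without single samples, and Flt3 was -0.0583 in KO samples only, with -0.0572 to 0.42. Without single samples, Csf1r in tissue ranged from -1.06 to 0.27, Il7r, Cd34 and Csf2ra in BM from -1.32 to 0.10, -0.0251 to 0.54 and -0.092 to 0.24, and the Csf2rb interaction from -0.58 to 0.22. In the interaction 0 receptor genes were called with limma-voom and 2 with DESeq2, Csf1r and Csf3r. Of all genes, DESeq2 called 11 between BM genotypes, 4092 between tissues and 2233 in the interaction, no filter called 10 in BM, a minimum of 10 counts in every sample called 1762 between tissues, KO samples only 1336, and limma-voom 0 in the interaction. Without single samples these counts were 2 to 15 in BM (15 without KO BM 1), 1835 to 3187 between tissues and 767 to 2677 in the interaction (2677 without KO spleen 1 and 2425 without KO spleen 2). In spleen, 3 genes were higher and 4 lower in both KO samples, counts given without the share over all genes, which was not computed. With 1 KO sample, where every gene falls on a side, the counts were 3 to 6 and 4 to 7. With total count or DESeq2 scaling they were 2 and 4, without Csf2rb2. The causes were not tested.

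The replicate block called 3, 0 and 1 receptor genes for tissue, BM genotype and interaction, as without it, and of all genes 1070, 4 and 596. Same-numbered WT and KO BM samples correlated at 0.103, 0.099 and -0.0815, which does not show that the numbers pair the samples and does not show that they share no mice. The floor of 3 counts equals 0.168 and 0.127 CPM in KO spleen 1 and 2, where Csf3r had 0 counts. This floor covers counting error only and does not bound the level. In these libraries 1.92% and 1.82% of genes well counted in the other spleen samples were missing.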
